A study of Sus scrofa with 4 samples.

Results

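The integrin subunits examined here were 8 genes chosen by symbol, namely the β subunit genes ITGB1, ITGB3, ITGB5 and ITGB8 and the α subunit genes ITGAV, ITGA5, ITGA6 and ITGA9. The question was whether the higher level of ITGB5 in the Cu-exposed oocytes was shared by its family and by its α partner ITGAV. ITGB5 was picked because of that very difference and the same comparison defines the question for the others, so the differences of all 8 genes are described and no test of them is given. Values were present for 7 of the 8 genes, out of 16050 genes with values in the table, and no value was given for ITGA5.

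RNA was sequenced from porcine oocytes at metaphase II after 44 h of in vitro maturation, either without added Cu (Control) or with copper sulfate in the maturation medium at 25 μg/mL Cu. The oocytes came from cumulus-oocyte complexes of slaughterhouse ovaries, and no breed, genotype or age is given for the sows. A library pooled 3 oocytes and was prepared by Smart-seq2, which copies and amplifies whole polyadenylated transcripts, and 4 libraries were analysed, Control 1 and 2 and Cu 1 and 3. As nothing states that the libraries came from separate animals or cultures, the spread between them may be technical. Groups are those of the sample labels, and the samples are therefore called libraries labelled Cu or Control. The direction of every difference given here, that of ITGB5 included, rests on these labels, and whether they are as intended could not be settled from the table.

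Integrins are receptors of the plasma membrane in which 1 α subunit and 1 β subunit join to bind the extracellular matrix or a partner cell, while their tails reach the actin cytoskeleton through adaptors such as talin and kindlin. The β1 subunit joins many α subunits, including α5, α6 and α9, whereas αv (ITGAV) can join β1, β3, β5, β6 or β8. In mammalian eggs integrins have long been studied at the surface where the sperm binds, and α6β1 has been a candidate partner there. In many cells αvβ5 binds vitronectin and is also found in adhesions rich in clathrin.

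The levels are given as FPKM, in which fragments are divided by transcript length and library total, so that levels of different genes can be set side by side, while the sequencing depth is not known. The summed FPKM per library ran from 616082 to 672681. Between 7923 and 8162 genes reached 1 FPKM in Control 1, Control 2 and Cu 3, but 9364 did so in Cu 1. Pearson's correlation of log2(FPKM + 1) across the 8541 genes tested, which are not independent replicates, was 0.976 for Control 1 with Control 2 and 0.923 for Cu 1 with Cu 3. Differences were taken on the log2(FPKM + 1) scale, on which the added 1 makes differences of weakly expressed genes smaller. In limma's test none of the 8541 genes (0%) reached an adjusted p of 0.05, the smallest being 0.631, and 599 genes (7.01%) reached an unadjusted p of 0.05. With Cu 1 or Cu 3 left out, 186 and 1755 genes reached an adjusted p of 0.05, but the spread was then taken from the Control libraries alone. An exact permutation of 2 libraries against 2 has 0.333 as its smallest two-sided p. The median difference over all tested genes was 0.16 in the main calculation and -0.049 after quantile normalization, and it was 0.0023 without Cu 1 and 0.31 without Cu 3.

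ITGB5 encodes the β5 subunit. The gene (identifier 100134977) lies on chromosome 13 from 135468111 to 135587483 in Sscrofa11.1. Control 1 and 2 had 0.80 and 2.2 FPKM of ITGB5, whereas Cu 1 had 21.7 FPKM and Cu 3 had 7.08 FPKM. Cu 1 and Cu 3 thus both exceeded the Control libraries, and the lower Cu library had 3.22 times the FPKM of the higher Control library. The group means were 1.5 ± 0.99 FPKM in Control and 14.4 ± 10.3 FPKM in Cu (SD, n = 2 libraries each). The libraries of a group were themselves far apart, with a ratio of 2.75 between the Control libraries and of 3.06 between the Cu libraries. On the log2 scale the difference of Cu from Control was 2.50 (standard error 0.60), and 20 of the 8541 tested genes had a larger difference (0.234%). Without Cu 3 the difference was 3.24 and without Cu 1 it was 1.75, so its size depended on the library. Its direction could not change with a library left out, as both Cu libraries exceeded both Control libraries. Under the other scalings it was 2.29 to 2.63. Ranked within each library among all genes with values, ITGB5 stood at the percentiles 48.4 and 58.1 in Control 1 and 2. In Cu 1 and 3 it stood at the percentiles 82.2 and 72.2. These ranks do not depend on the scaling between libraries, but they restate the same FPKM and are no further evidence. The authors' mean FPKM was 1.57 for Control and 18.3 for Cu. By their decimals these means cover 3 libraries per group, so they include libraries whose own values were not analysed here. As each library pools 3 oocytes, a gene expressed more in some of them cannot be told apart from more RNA in each.

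ITGAV encodes the αv subunit, the only α subunit known to pair with β5. The gene (identifier 397285) lies on chromosome 15 from 91604666 to 91711843. Its level was 4.43 and 4.94 FPKM in Control 1 and 2, against 3.99 FPKM in each of Cu 1 and Cu 3. Here both Cu libraries were below both Control libraries, opposite to ITGB5, but the gap was small. The log2 difference of Cu from Control was -0.19 (standard error 0.35), and 22.6% of the tested genes had a lower one. Over the 14 settings run it lay between -0.46 and -0.12. Its sign could not change with a library left out, as the groups did not overlap. Set against the median of all tested genes the difference of ITGAV was -0.35, and between -0.50 and -0.19 over the 13 settings that give such a median. The authors' mean FPKM was 5.11 for Control and 4.41 for Cu, the same direction. Their Cu mean was above the 3.99 FPKM of Cu 1 and Cu 3, so a Cu library not analysed here was higher. The separation of the groups is therefore stated for these 4 libraries only.

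The balance between αv and its partners was then calculated within each library, where no scaling between libraries enters. The 5 β subunits that can join αv (ITGB1, ITGB3, ITGB5, ITGB6 and ITGB8) summed to 5.92 and 4.47 FPKM in the Control libraries, against 26.8 FPKM in Cu 1 and 11.7 FPKM in Cu 3. Relative to the FPKM of ITGAV this sum was 1.34 and 0.905 in Control 1 and 2, and 6.71 and 2.92 in Cu 1 and 3. Without ITGB5 the same ratio was 1.16 and 0.46 in the Control libraries and 1.27 and 1.15 in the Cu libraries, so the higher sum in Cu lay mostly in ITGB5. The share of ITGB5 in the sum was 13.5% and 49.2% in Control 1 and 2, against 81.0% in Cu 1 and 60.7% in Cu 3. The share of ITGB1 was 73.5% and 34.7% in Control 1 and 2, and 11.9% and 30.0% in Cu 1 and 3. The most abundant of these β transcripts was therefore ITGB1 in Control 1 alone, and ITGB5 in the other 3 libraries, Control 2 included. ITGB3, ITGB6 and ITGB8 held at most 9.62% each in any library. These ratios compare transcripts only, and as ITGB5 was chosen for its difference they are a description.

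**Figure D1:**
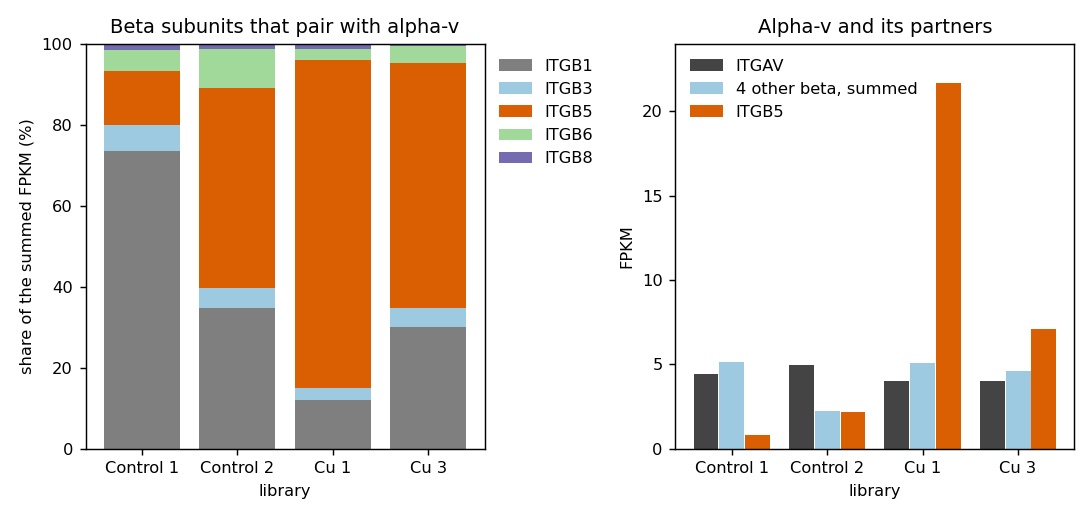
Left, the share (%) of each β subunit gene in the summed FPKM of the 5 β subunits that pair with αv, 1 bar per library; right, the FPKM of ITGAV, of ITGB5 and of the 4 other β subunits summed, in the same libraries. ITGB5 holds 13.5% and 49.2% of the sum in the Control libraries and 81.0% and 60.7% in the Cu libraries, while ITGAV stays between 3.99 and 4.94 FPKM.

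Among the remaining β subunits, ITGB1 is the common partner of most α subunits. The gene (identifier 397019, chromosome 10, 56078393 to 56130608) had 4.35 and 1.55 FPKM in Control 1 and 2, against 3.20 and 3.50 FPKM in Cu 1 and 3. The Cu libraries lay between the Control libraries, and the log2 difference of 0.24 was smaller than its standard error of 0.46. It turned to -0.30 without Control 2 and was 0.77 without Control 1. ITGB3, the partner of αv and of the platelet subunit αIIb, had 0.38 and 0.23 FPKM in Control 1 and 2, against 0.84 and 0.55 FPKM in Cu 1 and 3 (identifier 397063, chromosome 12, 16694466 to 16752228). Cu 1 and Cu 3 both exceeded the Control libraries, as for ITGB5, but all 4 values were below 1 FPKM, and the log2 difference was 0.37 (standard error 0.18 in the calculation without a filter). ITGB8, which joins only αv and is known for the activation of latent TGF-β, had 0.09 and 0.06 FPKM in Control 1 and 2, against 0.31 and 0.07 FPKM in Cu 1 and 3 (identifier 100037284, chromosome 9, 89342245 to 89450701). The groups of ITGB8 overlapped, and only Cu 1 stood above the rest. ITGB3 and ITGB8 did not pass the filter of 1 FPKM or more in at least 2 libraries, so both were left out of the comparison across genes. How precisely such low levels were measured is not known.

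Of the α subunits, ITGA6 was the member with the highest level in each library. α6 joins β1 or β4 and binds laminin. The gene (identifier 100158200, chromosome 15, 78504108 to 78591779) had 40.0 and 63.4 FPKM in Control 1 and 2, against 52.0 and 92.2 FPKM in Cu 1 and 3. The groups overlapped, with Cu 1 between the Control libraries and Cu 3 above them. Its log2 difference was 0.45 (standard error 0.41), which went down to 0.046 without Cu 3 and up to 0.86 without Cu 1. ITGA9, whose product joins β1 and binds tenascin-C among other ligands, had 2.22 and 3.78 FPKM in Control 1 and 2, against 4.29 and 2.03 FPKM in Cu 1 and 3 (identifier 100626707, chromosome 13, 22298497 to 22655717). The Cu libraries of ITGA9 were on either side of the Control libraries and the log2 difference was 0.029 (standard error 0.45). Set against the median of all tested genes it was -0.13, between -0.19 and -0.13 under the 4 other scalings, and between -0.37 and 0.12 with each library left out. ITGA5 encodes the α subunit of the fibronectin receptor α5β1 (identifier 100155091, chromosome 5, 19587361 to 19610580). Its row held no values, so nothing can be said of its level.

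The order of the levels differed between the groups in the place of ITGB5. By mean FPKM in Control the order was ITGA6 (51.7), ITGAV (4.69), ITGA9 (3), ITGB1 (2.95), ITGB5 (1.5), ITGB3 (0.305) and ITGB8 (0.075). The Control values of ITGA9 and ITGB1 overlapped, as did those of ITGB1 and ITGB5, and the other neighbours were separated. In Cu the order was ITGA6 (72.1), ITGB5 (14.4), ITGAV (3.99), ITGB1 (3.35), ITGA9 (3.16), ITGB3 (0.695) and ITGB8 (0.19), in which ITGB1 and ITGA9 overlapped. ITGB5 thus went from the fifth to the second place, while the order of the other 6 genes was the same apart from the exchange of ITGA9 and ITGB1, which overlapped in both groups. ITGB1 was scarce relative to ITGA6, since the FPKM of ITGA6 was 9.19 and 40.9 times that of ITGB1 in Control 1 and 2, and 16.3 and 26.3 times in Cu 1 and 3.

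**Figure D2:**
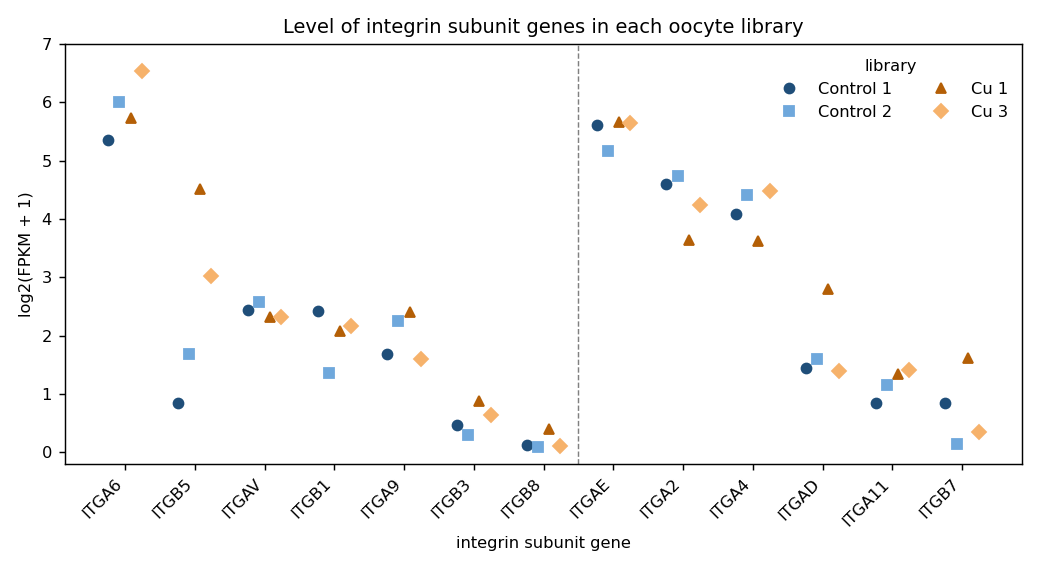
Level as log2(FPKM + 1) of the 7 members with values (left of the dashed line) and of the 6 other integrin subunit genes at 1 FPKM or more in any library (right), 1 symbol per library. ITGB5 is the gene in which the Cu symbols stand farthest above the Control symbols, from 0.85 and 1.68 in Control to 4.50 and 3.01 in Cu, whereas those of ITGAV lie between 2.32 and 2.57.

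Taking the members that passed the filter, 5 in number, Cu 1 and Cu 3 both exceeded Control in ITGB5 and in 0 of the 4 others, were both below it in ITGAV, and overlapped with it in ITGB1, ITGA6 and ITGA9. Among all tested genes 25.4% had both Cu libraries on the higher side, 13.4% had both on the lower side, and 61.2% overlapped or tied. The log2 differences of the 4 tested members other than ITGB5 ran from -0.19 to 0.45 with a median of 0.13, close to the 0.16 of all tested genes. With ITGB5, which passed the filter only through the Cu libraries, the median of the 5 was 0.24.

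**Figure D3:**
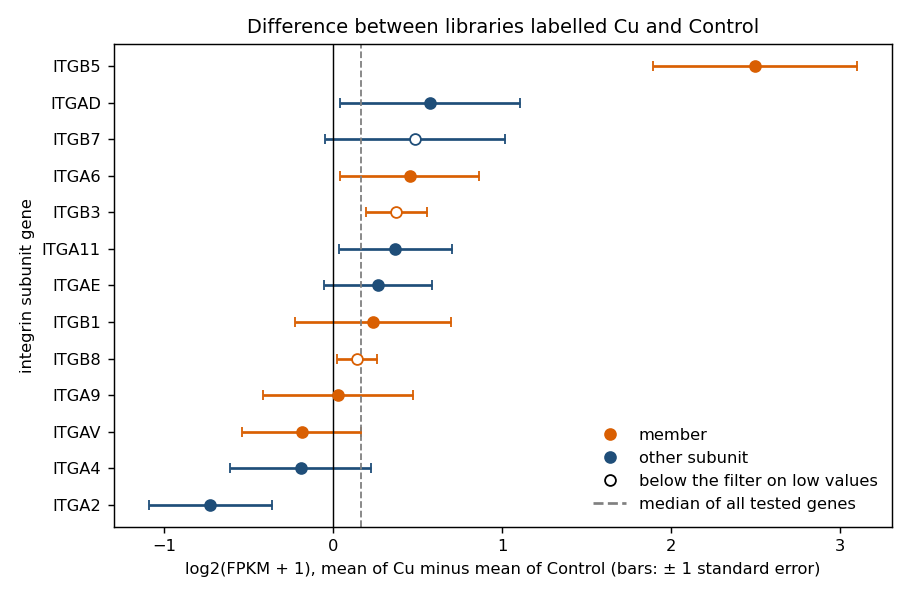
Difference in log2(FPKM + 1) between the means of the libraries labelled Cu and Control (n = 2 each) for the members (orange) and the other subunits at 1 FPKM or more in any library (blue), with bars of 1 standard error. Open symbols are genes below the filter on low values and the dashed line is the median of all tested genes, 0.16. ITGB5 stands apart at 2.50, and the remaining genes lie between -0.73 and 0.57.

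The table held rows for 18 further integrin subunits, of which 15 had values and 6 reached 1 FPKM in any library. Of these, 5 passed the filter. The αE subunit gene ITGAE, known from lymphocytes of epithelia, had 48.0 and 34.8 FPKM in Control 1 and 2, against 49.8 and 48.8 FPKM in Cu 1 and 3. The Cu libraries were slightly above the Control libraries, with a log2 difference of 0.26 (standard error 0.32, limma adjusted p = 0.860). Its only known partner is β7, and ITGB7 had 0.80 and 0.10 FPKM in Control 1 and 2, against 2.06 and 0.27 FPKM in Cu 1 and 3, with overlapping groups. GSG2, the gene of the kinase haspin, lies inside ITGAE and had between 0.22 and 1.18 FPKM, and since no strand is given for the counting, reads of overlapping genes cannot be told apart with certainty. ITGA2, a collagen-binding subunit, had 23.2 and 25.7 FPKM in Control 1 and 2, against 11.5 and 17.9 FPKM in Cu 1 and 3. Both Cu libraries were below both Control libraries, with a log2 difference of -0.73 (standard error 0.36, limma adjusted p = 0.717). ITGA2 overlaps the end of MOCS2, a gene of molybdenum cofactor synthesis, which had 96.0, 96.9, 62.9 and 108 FPKM in Control 1, Control 2, Cu 1 and Cu 3. ITGA4, the α4 subunit that joins β1 or β7, had 16.0 and 20.2 FPKM in Control 1 and 2, against 11.3 and 21.4 FPKM in Cu 1 and 3, with the Cu libraries on either side of Control. The collagen-binding subunit gene ITGA11 had between 0.79 and 1.64 FPKM, and the leukocyte subunit gene ITGAD between 1.61 FPKM and the 5.99 FPKM of Cu 1.

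Over all 26 subunits, 10 were tested. Both Cu libraries were above Control in 3 (ITGB5, ITGAE and ITGA11) and below it in 2 (ITGAV and ITGA2), and 5 overlapped. Among all tested genes the shares were 25.4%, 13.4% and 61.2%. The authors' means of ITGB5, ITGAE, ITGA11, ITGAV and ITGA2 differed in the same directions. They were close in ITGAE (44.7 and 45.6 FPKM in Control and Cu) and in ITGA11 (1.53 and 1.65 FPKM). The separations counted here are those of the 4 libraries only. Of the Control libraries only Control 2 reached 1 FPKM in ITGB5 and ITGA11, so both genes passed the filter through the Cu libraries. The median log2 difference of the 10 was 0.25, and 6 of them were above the median of all tested genes. The summed FPKM of all α subunits was 136.7 and 156.9 in Control 1 and 2, and 141.5 and 190.1 in Cu 1 and 3, so the groups overlapped. The summed FPKM of all β subunits was 6.83 and 4.61 in Control 1 and 2, and 29.2 and 12.2 in Cu 1 and 3. Transcripts of α subunits therefore exceeded those of β subunits in each library, by 20.0 and 34.0 times in the Control libraries and by 4.85 and 15.6 times in the Cu libraries. Among the α subunits that recognise the RGD motif of vitronectin and fibronectin, ITGAV alone was tested, as ITGA8 was at 0.02 FPKM or less in every library and the rows of ITGA5 and ITGA2B held no values.

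The genes around integrins were described by 6 lists, namely activators and adaptors, focal adhesion kinases and exchange factors, matrix ligands, latent TGF-β and its activation, integrin-associated membrane proteins of the egg, and integrin traffic. Together they held 74 tested genes, each counted once, of which 0 passed an unadjusted p of 0.05 with a log2 difference of 1.5 in either direction, limits which 1.76% of all tested genes passed upward and 0.117% downward, and 1, GIT1, reached an unadjusted p of 0.05. Cu 1 and Cu 3 both exceeded Control in 22 of the 74 (29.7%) and were both below it in 11 (14.9%), beside 25.4% and 13.4% of all tested genes. The median log2 difference was 0.20, beside 0.16 for all tested genes.

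The list of activators and adaptors had 16 tested genes with a median log2 difference of 0.032, which was -0.18 without Cu 1 and 0.32 without Cu 3. Cu was above Control in 3 and below in 2 of them, beside 25.4% and 13.4% of all tested genes. ACTN4, an actin cross-linker, had 3.42 and 4.18 FPKM in Control 1 and 2, against 12.6 and 4.74 FPKM in Cu 1 and 3 (log2 difference 0.88, standard error 0.50). RAP1B, a small GTPase that promotes integrin activation, had 113 and 120.2 FPKM in Control 1 and 2, against 99.1 and 69.7 FPKM in Cu 1 and 3 (log2 difference -0.48, standard error 0.31). KANK2, a talin-binding adaptor, had a log2 difference of 0.54. RSU1, a partner of the ILK complex, had the highest level of the list, between 189 FPKM in Cu 1 and 314 FPKM in Control 2. Kindlins and talins, named after their values were seen, were represented mostly by FERMT2 (kindlin-2) with 49.0 to 60.9 FPKM and by TLN2 with 2.07 to 3.79 FPKM, while TLN1 was at 0.22 FPKM or less.

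Among the focal adhesion kinases and exchange factors, 21 genes were tested with a median of 0.20. Cu was above Control in 5 and below in 3 of the 21, beside 25.4% and 13.4% of all tested genes. GIT1, a scaffold of adhesion turnover, had 3.23 and 5.87 FPKM in Control 1 and 2, against 13.9 and 8.42 FPKM in Cu 1 and 3, a log2 difference of 1.13 (standard error 0.44, limma adjusted p = 0.677). Its partner ARHGEF7 (β-PIX), an exchange factor for RAC1 and CDC42, had 2.56 and 2.76 FPKM in Control 1 and 2, against 6.65 and 3.25 FPKM in Cu 1 and 3. PIK3R1, the regulatory subunit of phosphoinositide 3-kinase, was lower in both Cu libraries, with 23.1 and 18.8 FPKM in Control 1 and 2, against 13.3 and 11.7 FPKM in Cu 1 and 3 (log2 difference -0.70, standard error 0.34). The authors' mean FPKM of PIK3R1 was 16.0 for Control and 16.7 for Cu, so those means did not show the lower level. The abundant GTPase genes RHOA and RAC1 overlapped between the groups. The list median was 0.036 without Cu 1.

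The 6 tested matrix ligands had a median of 0.13. The laminin genes LAMB1 and LAMC1 were at 21.1 to 27 FPKM and 5.63 to 12 FPKM, and FBN1, the gene of the RGD-containing fibrillin-1, at 1.82 to 2.89 FPKM, with Cu above Control in LAMC1 and FBN1. EDIL3, whose product binds αvβ3 and αvβ5, had 7.20 and 9.76 FPKM in Control 1 and 2, against 3.85 and 4.76 FPKM in Cu 1 and 3, so that it was lower in both Cu libraries (log2 difference -0.83, standard error 0.37, limma adjusted p = 0.708). VTN and FN1, the vitronectin and fibronectin genes, named after their values were seen, were at 0.54 FPKM or less and 0.34 FPKM or less in every library. Of the list of latent TGF-β and its activation, 3 genes were tested, with a median of 0.35. SMAD2, a transducer of TGF-β signals, had 11.3 and 9.93 FPKM in Control 1 and 2, against 21.8 and 15.1 FPKM in Cu 1 and 3 (log2 difference 0.72, standard error 0.36), and the receptor gene TGFBR1 0.80 to 1.83 FPKM with Cu above Control. LTBP1, which anchors latent TGF-β in the matrix, overlapped between the groups at 7.26 to 12.5 FPKM.

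Of the integrin-associated membrane proteins of the egg, 10 genes were tested. Of the 10, 8 overlapped between the groups, beside 61.2% of all tested genes. The median of the 10 was 0.33, or -0.088 without Cu 1 and 0.62 without Cu 3. IZUMO1R, the egg receptor of the sperm protein IZUMO1, had 0.33 and 1.71 FPKM in Control 1 and 2, against 2.71 and 1.79 FPKM in Cu 1 and 3. It passed the filter through the Cu libraries. ADAM10, a membrane protease, was lower in both Cu libraries, with 8.51 and 9.83 FPKM in Control 1 and 2, against 7.69 and 3.16 FPKM in Cu 1 and 3 (log2 difference -0.76, standard error 0.47). The authors' mean FPKM of ADAM10 was closer between the groups, at 8.15 for Control and 7.29 for Cu. CD47 and CD63 were the most abundant at 32.6 to 39.8 FPKM and 17.6 to 38.0 FPKM. CD9, the tetraspanin needed for sperm-egg fusion in mice, named after its values were seen, was listed at 0 FPKM in Control 1 and Cu 3, at 0.04 FPKM in Control 2 and at 0.90 FPKM in Cu 1. The 18 tested genes of integrin traffic had a median of 0.28, which was 0.042 without Cu 1. Cu was above Control in 8 and below in 4 of them, beside 25.4% and 13.4% of all tested genes. RAB21, a GTPase that binds α subunits during endocytosis, had 7.01 and 8.61 FPKM in Control 1 and 2, against 12.8 and 18.6 FPKM in Cu 1 and 3 (log2 difference 0.91, standard error 0.37, limma adjusted p = 0.708). DNM2, which cuts off endocytic vesicles, and SNX17, a sorting nexin that binds β subunit tails, had log2 differences of 0.82 and 0.70. SNX17 passed the filter through the Cu libraries. RAB11A, of the recycling endosome, was the most abundant at 339.5 to 424 FPKM with both Cu libraries above Control, and SNX31 was lower in both Cu libraries with a log2 difference of -0.51.

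**Figure D4:**
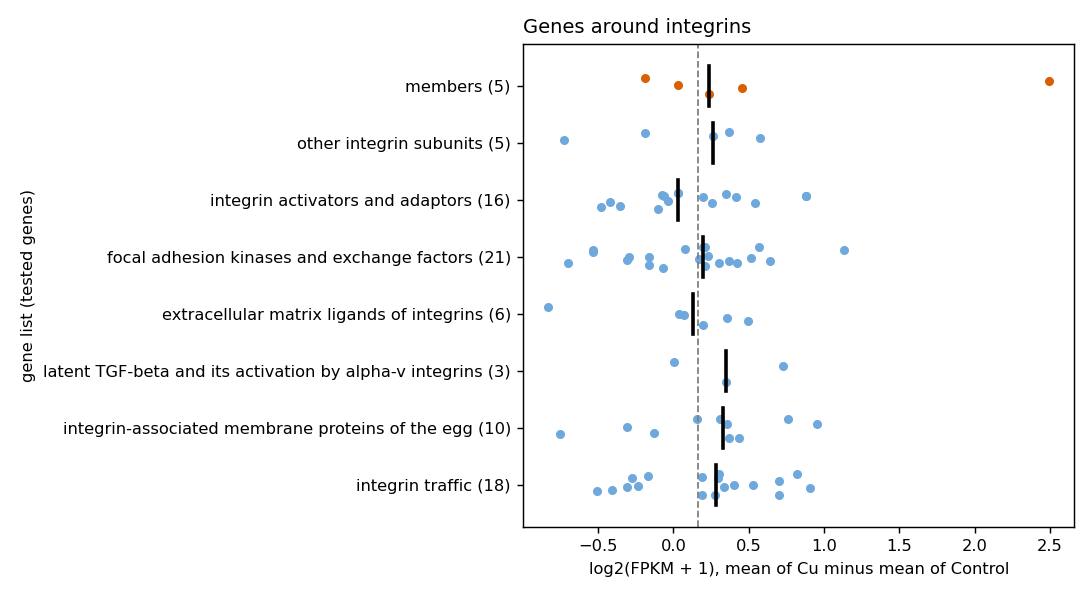
Difference in log2(FPKM + 1) between the means of the libraries labelled Cu and Control for the tested members, the other tested integrin subunits and the tested genes of 6 lists, 1 point per gene, with the number of genes in brackets, a black bar at the median of each row and a dashed line at the median of all tested genes (0.16). ITGB5 at 2.50 lies beyond every other point, of which the highest is GIT1 at 1.13.

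The genes whose pattern over the 4 libraries was nearest to that of ITGB5, measured as the Euclidean distance of log2(FPKM + 1) after centring on the mean of each gene, were COX17, DDT and TMBIM6, at distances of 0.164, 0.446 and 0.475. COX17, a copper chaperone for cytochrome c oxidase, had 65.5 and 112 FPKM in Control 1 and 2, against 742 and 259 FPKM in Cu 1 and 3. DDT, a tautomerase related to MIF, had 1.45 and 3.97 FPKM in Control 1 and 2, against 25.6 and 7.33 FPKM in Cu 1 and 3. TMBIM6, a membrane protein of the endoplasmic reticulum, had 7.50 and 21.2 FPKM in Control 1 and 2, against 124.9 and 36.1 FPKM in Cu 1 and 3. All 3 shared with ITGB5 the order from Control 1 through Control 2 and Cu 3 to Cu 1. The authors' mean FPKM in Control and Cu was 180 and 431 for COX17, and 4.37 and 13.7 for DDT. For both genes the Control mean exceeded Control 1 and 2, so a Control library not analysed here was higher. The likeness to ITGB5 therefore covers these 4 libraries only. For ITGAV the nearest were RABEPK, LOC100736569 and CLIP1 at distances of 0.041, 0.048 and 0.048, with log2 differences of -0.19, -0.22 and -0.16. Likeness over 4 libraries, searched among 8541 genes, is a description.

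In the genome, ITGB5 lies between HEG1 and MUC13 on the side of lower coordinates and UMPS and KALRN on the side of higher coordinates, counting protein-coding genes of the RefSeq annotation. MUC13, next to ITGB5, had 3.72 and 4.22 FPKM in Control 1 and 2, against 7.93 and 3.74 FPKM in Cu 1 and 3. UMPS, the neighbour on the far side, had 6.98 and 6 FPKM in Control 1 and 2, against 7.74 and 9.13 FPKM in Cu 1 and 3. Their log2 differences of 0.39 and 0.33, and that of -0.024 for KALRN, were all below the 2.50 of ITGB5, and HEG1 was below 1 FPKM in every library.

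The identity of the cells was checked with markers. All 15 oocyte markers with values were tested, and their summed FPKM was 11273 and 12784 in Control 1 and 2, and 14170.5 and 11960 in Cu 1 and 3. The most abundant of them were DPPA3 and H1FOO, at 2649 to 3654 FPKM and 2324 to 3622 FPKM. The groups overlapped in 11 of the 15, and Cu 1 and Cu 3 both exceeded Control in 4. Among all tested genes 61.2% overlapped or tied and 25.4% had both Cu libraries above. The 4 included the oocyte transcription factor gene FIGLA, the maternal-effect gene ZAR1 and the growth factor gene GDF9. The log2 differences were 1.61 in FIGLA, 1.36 in ZAR1 and 1.26 in GDF9. Those of DPPA3 and H1FOO were -0.14 and -0.31, with overlapping groups. The median of the 15 was 0.49, beside 0.16 for all tested genes, and it was 0.087 without Cu 1 and 1.10 without Cu 3, where that of all tested genes was 0.0023 and 0.31. Of the cumulus and granulosa cell markers, 19 had a row and 15 had values, of which 3 or 4 reached 1 FPKM in each library. Their summed FPKM was 16.9 and 26.1 in Control 1 and 2, and 38.0 and 31.0 in Cu 1 and 3, higher in both Cu libraries as for ITGB5. Most of that gap lay in SERPINE2, a protease inhibitor, which had 1.59 and 2.93 FPKM in Control 1 and 2, against 14.2 and 12.7 FPKM in Cu 1 and 3 (log2 difference 2.18, standard error 0.39, limma adjusted p = 0.631). Without SERPINE2 the sums were 15.3, 23.2, 23.8 and 18.3 FPKM in the same order and overlapped. Of those named after their values were seen, AMH was listed at 0 in every library and PTX3 and KRT18 at 0 in all but Control 2. NT5E at 3.09 to 6.83 FPKM and VCAN at 0.49 to 1.43 FPKM, also named after their values were seen, overlapped between the groups. TNFAIP6, named likewise, was at 0.38 and 0 FPKM in Control 1 and 2, and at 0.97 and 0 FPKM in Cu 1 and 3, with overlapping groups. The rows of FSHR, LHCGR, INHA and KRT8 held no values. Other follicle and blood cell markers summed to 2.80 to 6.71 FPKM, with overlapping groups. The most abundant tested markers of these lists, FST of granulosa cells at 10.2 to 16.0 FPKM and PECAM1 of endothelium at 1.96 to 5.61 FPKM, overlapped, and DCN of stroma was at 0.21 to 1.28 FPKM with Cu above Control. DCN reached 1 FPKM in the Cu libraries alone, so it passed the filter through them. The part of these markers in the level of ITGB5 was not tested. Of 7 tested genes of copper handling and the response to metals or stress, Cu 1 and Cu 3 both exceeded Control in 4. They were both below it in 1, and the median of the 7 was 0.40. Among all tested genes 25.4% had both Cu libraries above Control and 13.4% had both below. The metallothionein gene MT1A was lower in both Cu libraries (log2 difference -0.62), MT3 was higher in both (1.54), and MTF1, the gene of the metal-responsive transcription factor, overlapped. Of the remaining genes, named after their values were seen, the metallothionein gene MT1D overlapped, while the zinc exporter gene SLC30A1 (0.40) and the copper pump gene ATP7B (0.46) were higher in both Cu libraries. HSPA1A was higher in both Cu libraries, at 58.2 and 27.8 FPKM beside 21.5 and 14.1 FPKM in Control.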

How the data were processed

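Per the labels, the 4 libraries are oocytes at metaphase II, 2 per group. In the paper's methods, reads were filtered with SOAPnuke, mapped with HISAT2 and Bowtie2 and quantified with RSEM, while the submitters' processing notes name TopHat2 2.0.13, Cufflinks 2.2.1 and the build Sscrofa11.1. Which of these made the table is not stated. The values the authors deposited are FPKM, rounded to 2 decimals, for 16050 of 30684 rows, and the authors' mean FPKM of each group. The deposited authors' means gave whole hundredths of an FPKM (within 0.01 of a hundredth) for all 16050 genes when multiplied by 3, and for 5967 (Control) and 5857 (Cu) when multiplied by 2. FPKM keep no read number, so no interval that needs depth is given and no count test was run.

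From the FPKM, log2(FPKM + 1) was calculated, and 8541 genes that reached 1 FPKM in 2 or more libraries were kept. A gene that needs the Cu libraries to pass this filter is more likely to be higher in Cu. Among named genes above Control in both Cu libraries, these were ITGB5, ITGA11, KANK2, TGFBR1, IZUMO1R, SNX17, FIGLA and DCN. The comparison of the groups was made in R 4.3.3 with limma 3.58.1 (eBayes with a variance trend, Benjamini-Hochberg adjustment over all 8541 genes). The fit was run on simulated data in which 200 of 8541 genes were changed by a log2 of 2, and it recovered 199 with 7 false calls. The simulated libraries varied independently and none deviated as a whole. The run therefore cannot show how the fit behaves with a library such as Cu 1. Coordinates are those of RefSeq for Sscrofa11.1, in which all 16050 identifiers were found. The members and gene lists were chosen with earlier results of these data known. Named genes are the 8 members, other subunits at 1 FPKM or more in any library, and of each list the 3 with the largest difference among those without overlap and the 2 with the highest level. Genes outside this rule are said to be named after their values were seen, apart from genome neighbours, overlapping genes, nearest patterns and markers without values. ITGB6, ITGA8 and ITGA2B were named as partners of αv or as RGD-binding subunits. Alternatives were the pseudocount, the filter, the variance trend, the scaling, the authors' means and leaving out each library. List medians without each Cu library were added after seeing the data.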

Additional observations from a re-analysis of the deposited data

How the results depend on the processing

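Over the settings run, the log2 difference of ITGB5 lay between 1.75 and 3.24. Leaving out 1 of 2 libraries cannot move it beyond the spread between libraries. Changing the variance trend or dropping the filter leaves it at 2.50, so these settings cannot show that it is stable. That of ITGAV was -0.26 after rescaling to a common sum, -0.33 after upper-quartile and after median-of-ratios scaling and -0.46 after quantile normalization, and lay between -0.25 and -0.12 with each library left out. The median of the members was 0.35 with a pseudocount of 0.1, 0.13 for members at 1 FPKM or more in all 4 libraries (which leaves out ITGB5), 0.10 after upper-quartile and after median-of-ratios scaling, -0.036 after quantile normalization, 0.12 from the authors' means, and 0.13 to 0.31 with each library left out. Genes past both limits numbered 150 higher and 10 lower in the main calculation, and 246 and 24 with the pseudocount of 0.1. The lower genes numbered 18 after rescaling and 20 after upper-quartile, median-of-ratios and quantile normalization. With each library left out there were 77 to 741 higher and 11 to 41 lower genes, where a lone library is assumed to vary like the other group. The highest number, 741, was without Cu 3, and the lowest, 77, without Control 1. The oocyte marker median was 0.49, and 0.087 without Cu 1 and 1.10 without Cu 3. The share of ITGB5 among the partners of αv was higher in Cu by 39.5 percentage points, and by 21.6 to 57.3 with each library left out. No paired analysis was possible because the groups share only replicate number 1. The depth of the libraries is unknown, which limits what can be said of ITGB3, ITGB8 and other genes below 1 FPKM.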
